A study of Mus musculus with 2 samples.

Results

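The cytosolic ribosomal protein genes were followed in sorted mouse microglia: every gene named Rpl or Rps with a digit, plus Rplp0, Rplp1, Rplp2 and Rpsa, without pseudogene (-ps) and Rps6k names, that had at least 100 UMIs over all barcodes. A UMI (unique molecular identifier) marks 1 captured RNA molecule. Of 32285 genes, 86 carried such a name and 83 were kept, 49 with large-subunit names (Rpl, Rplp) and 34 with small-subunit names (Rps, Rpsa). The kept gene nearest the limit was Rps27rt with 369 UMIs, and those left out were Rpl39l with 98, Rpl3l with 11 and Rpl10l with 0. The rule works on names, so it also takes in Rps19bp1, whose product binds Rps19 and is no ribosomal subunit, and the paralogs Rps27l, Rpl22l1, Rpl7l1, Rpl36al and Rps27rt.

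Cells came from whole brains of mice 12 weeks old that were heterozygous (1 copy) for Cx3cr1CreERT2(Litt), a tamoxifen-inducible Cre recombinase placed at the microglial gene Cx3cr1. The mice had received tamoxifen (TAM) or the oil vehicle (Oil) over 4 weeks, and CD11b+ CD45+ Ly6G- CD206- cells were sorted. All animals of both groups carried the allele, so the comparison is of tamoxifen plus an active Cre with oil and an inactive Cre. Cre-free mice given TAM are not analysed here, and the effects of the drug and of Cre cannot be told apart. Cells were labelled with antibody hashtags, Oil1 to Oil5 and TAM1 to TAM5, pooled and run as 1 droplet library with 3′ counting. Whether every hashtag stands for its own mouse is not stated in the labels, and p-values therefore measure the spread between hashtags.

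Ribosomal proteins assemble with ribosomal RNA into the small and large subunits of the ribosome, and the cell keeps their supply roughly in step, because a subunit needs 1 copy of nearly every protein. Their mRNAs are abundant, short and stable, and most begin with a run of pyrimidines, the 5′ TOP motif, through which mTOR and LARP1 adjust their translation. Their share of the mRNA is known to vary with cell type and cell state. A few members have paralogs or roles outside the ribosome. Rps27l is a target of p53, and Rps19 is the gene most often mutated in Diamond-Blackfan anaemia.

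The sequences around annotated starts are shown first because the pyrimidine word CTTTC was more frequent there than near the starts of other genes. Each line gives 10 bases before and 20 bases after the RefSeq start on the gene's own strand (GRCm38.p6), with CTTTC in capitals. The upper 5 genes hold it in this window. The lower 5 do not, and are shown because they departed from the family in the results that follow. Other members departed too, among them Rps27rt in the upper 5 and Rpl31, which is not shown. Rps19, Rpsa and Rpl31 hold CTTTC in the wider window counted below.
Rpl28 (chr7:4792955-4792984, plus strand): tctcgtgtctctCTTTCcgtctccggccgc
Rpl38 (chr11:114668570-114668599, plus strand): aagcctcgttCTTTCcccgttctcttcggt
Rpl35 (chr2:39005112-39005141, minus strand): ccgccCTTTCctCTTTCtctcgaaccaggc
Rps27 (chr3:90213629-90213658, minus strand): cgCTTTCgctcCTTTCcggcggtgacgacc
Rps27rt (chr9:114982720-114982749, minus strand): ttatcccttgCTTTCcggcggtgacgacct
Rps19 (chr7:24884582-24884611, plus strand): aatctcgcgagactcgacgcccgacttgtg
Rps27l (chr9:66946076-66946105, plus strand): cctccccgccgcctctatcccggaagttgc
Rpsa (chr9:120127756-120127785, plus strand): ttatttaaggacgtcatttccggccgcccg
Rps2 (chr17:24720053-24720082, plus strand): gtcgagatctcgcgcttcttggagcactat
Rpl7l1 (chr17:46782637-46782666, minus strand): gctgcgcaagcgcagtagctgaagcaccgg

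RefSeq start sequences were at hand for 63 of the 83 genes. On the sense strand, 32 of the 63 (50.8%) held CTTTC between 30 bases before and 50 after a start, against 909 of 8920 other genes with at least 100 UMIs (10.2%). On the opposite strand the shares were 12.7% and 9.57%, so the difference lay mostly on the sense strand. A start of C followed by pyrimidines, at least 5 in a row, was less common: it was found in 8 of 77 members with an annotated principal transcript (10.4%) and in 182 of 7825 other genes (2.33%). Only the first bases of 1 annotated transcript per gene were read, so this count depends on where the annotation places the start. It is no measure of how many of these mRNAs carry the TOP motif. Longer versions of CTTTC showed the same order on the sense strand: CTTTCC was in 30.2% against 4.45% and CTCTTTC in 19.0% against 1.26%. The other words counted were CTTTTC (14.3% against 2.98%), CTTCCT (22.2% against 7.51%), CTTTT (20.6% against 8.09%), TATAA (14.3% against 2.76%) and CCGGAAG (15.9% against 6.40%). These 8 words overlap each other, were counted in 3 windows, and CTTTC was picked for display after the counts were seen. Members with and without CTTTC had median folds of 0.02 (log2, TAM over oil) in either case, and median ratios of -0.20 in cluster 0 and 0.23 in cluster 1, the 2 largest groups of cells.

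Over the 10 hashtags, 7515 microglia-like cells were used, 582 to 899 per hashtag, with 2951282 to 4792144 UMIs each. The 14 microglial markers were each found in at least 25% of the cells of every microglia-like cluster. Oil hashtags held more immediate early RNA (Fos, Egr1 and other genes induced within minutes): their mean log2 CPM (counts per 1000000 UMIs) over 22 such genes ran from 5.31 to 7.14, against 4.19 to 5.23 in TAM hashtags. Along Oil1 to Oil5 this level fell at each step (7.14, 6.49, 6.30, 5.78 and 5.31). TAM1 to TAM5 had 5.18, 5.23, 4.61, 4.27 and 4.19. The level therefore also moved with hashtag number within both groups, and Oil5 and TAM1 were close. The share of the nuclear RNA Malat1 ran from 2.47% to 2.60% in oil and from 2.18% to 2.41% in TAM, while mitochondrial shares overlapped. The part of these differences in the results below was not tested except where a value is given.

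In the microglia-like cells the family supplied 4.86% of all UMIs. Because 3′ counting gives about 1 UMI per captured mRNA whatever its length, levels are set side by side in CPM. How evenly the mRNAs of different genes were captured and mapped is not known, so the order of members is approximate. The median member had 559 CPM, and the middle of the family was narrow, with quartiles of 396 and 754 CPM. Small-subunit names had a median of 605 CPM and large-subunit names one of 543 CPM.

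Rplp1, an acidic protein of the ribosomal stalk that recruits elongation factors, was highest, with 1664, 1780, 1800, 1769 and 1748 CPM in Oil1 to Oil5 and 1778, 1848, 1764, 1731 and 1872 CPM in TAM1 to TAM5. Its stalk partners Rplp2 and Rplp0 had means of 643 and 521 CPM. Rps29 (1380 CPM), Rps24 (1140 CPM), Rpl13 (1131 CPM) and Rps12 (1045 CPM) followed. These 5 highest members made up 13.3% of the family's UMIs.

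The 5 genes below 100 CPM were all outside the core set: Rpl7l1 with 93.1, Rps27l with 88.1, Rpl22l1 with 87.8, Rps19bp1 with 35.2 and Rps27rt with 7.85 CPM. Each paralog lay far below its parent, which were Rpl7 with 512, Rps27 with 472 and Rpl22 with 332 CPM. Rpl36al and Rpl36a were an exception, at 224 and 212 CPM. Rps27rt shares an identical stretch of at least 90 bases with Rps27 in the last 300 bases of its transcript, so its few UMIs cannot be told apart from reads of Rps27. Such a stretch was shared with at least 1 other annotated gene by 45 members, and with 10 or more by 7 of them, Rps2 and Rps12 included. Levels of those genes are uncertain, since the handling of reads that map to several copies is not given in the sources used here.

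The family's share of UMIs differed more between cell states than between treatments. Clusters were built without the 83 genes, so none of them was used directly to define a state. Cluster 0 (3050 cells, led by Nhs) had the family at 4.22% of UMIs, and cluster 1 (2795 cells, led by Tmem52, Gadd45gip1, Higd2a and Tomm6) at 5.71%. Cluster 2 (1066 cells), led by the immediate early genes Fos, Fosb and Egr1, stood at 4.38%. Cluster 3 (567 cells), led by the interferon-induced Cxcl10 and Ifit3 and the activation genes Spp1 and Lpl, stood at 6.06%. Cluster 6, 37 dividing cells led by Top2a and Mki67, had 3.82%.

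Cluster 1 stood above cluster 0 in every hashtag. Cluster 0 ran from 3.81% to 4.55% over the 10 hashtags and cluster 1 from 5.37% to 6.56%, with no overlap. Cluster 3 ran from 5.67% to 6.85% and lay below cluster 1 in TAM4 and TAM5. Cluster 2 lay below cluster 0 in Oil5 and TAM5 and above it in the other hashtags. Cells of cluster 1 were shallower, with a median of 4281 UMIs against 5500.5 in cluster 0, and had 1.02% against 0.767% mitochondrial UMIs; the part of depth in the difference was not tested. Cluster 3 was as deep as cluster 0 (5362 UMIs). Across all 83 genes the shift was uniform: all 83 were higher in cluster 1 than over all microglia-like cells (median log2 ratio 0.24), where 41.4% of all genes were, and all 83 were lower in cluster 0 (median -0.20), where 54.5% of all genes were higher. In cluster 3, 80 of 83 were higher (median 0.31), against 45.9% of all genes.

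**Figure D1:**
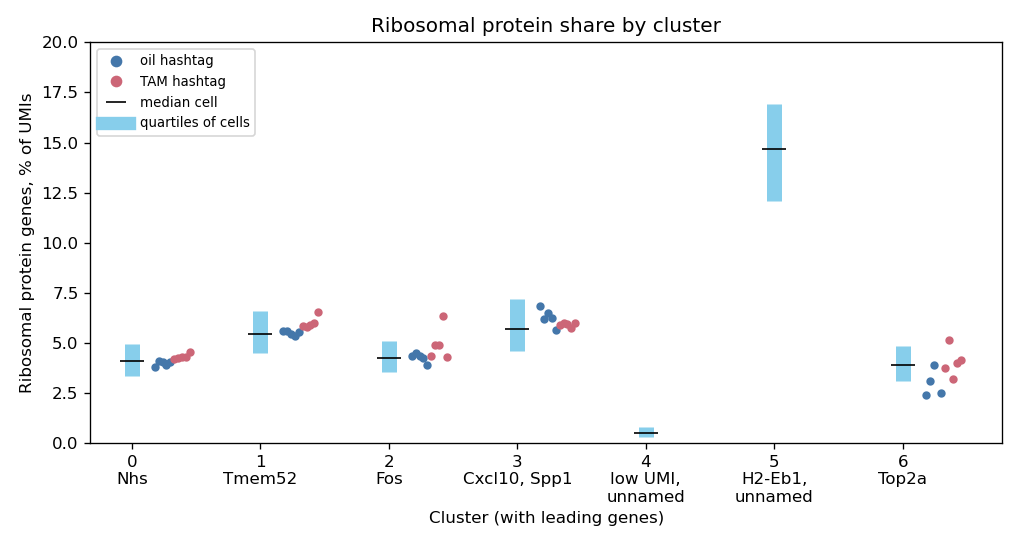
Share of UMIs from the 83 ribosomal protein genes (vertical axis, %) in each cluster: black marks are the median cell, blue bars the range between the quartiles of cells, and points the summed share of each oil or TAM hashtag. Cluster 1 (5.37% to 6.56%) lies above cluster 0 (3.81% to 4.55%) in every hashtag, and the TAM points of cluster 2 and the points of cluster 6 rest on few cells.

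Some members left the family in particular states. A member was taken to depart where its log2 ratio (CPM in the cluster over CPM in all microglia-like cells, per total UMIs) lay more than 3 scaled median absolute deviations from the family's median. Clusters are made from the same cells, so these ratios are descriptions without a test. The ratios spread by cluster size too: the scaled deviation was 0.026 in cluster 0 and 0.25 in cluster 6.

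Rps27l (chr9:66946086-66949516, GRCm38), a paralog of the small-subunit gene Rps27, departed farthest once the finer clustering below was included, by 10.0 scaled deviations. Within the main clusters its largest distance was 6.17, and Rps27rt (7.92) and Rpl7l1 (6.19) were farther. In the dividing cluster 6 it reached 195 CPM (exact Poisson 95% interval 151 to 248, counting error only) against 87.95 CPM in all microglia-like cells, a log2 ratio of 1.15 where the family's median was -0.38. By hashtag it was at 121, 104, 0 and 148 CPM in Oil1, Oil2, Oil3 and Oil5, each from 1 cell, and at 49.3, 232, 259, 201 and 197 CPM in TAM1 to TAM5, from 2 to 11 cells. In cluster 3 it was at 140 CPM (ratio 0.67, family 0.31). At a finer resolution (Leiden 0.8), a cluster of 109 cells, called fine cluster 8, had Cenpf, Phlda3, Cdkn1a and Cdc20 among its leading genes, and 72 of its cells lay in cluster 3. Cdkn1a and Phlda3 are p53 targets as Rps27l is, and Cenpf and Cdc20 belong to the G2 and M phases. There Rps27l reached 252 CPM (214 to 294), a log2 ratio of 1.52 with the family at -0.02, while its parent Rps27 stood at 437 CPM against 471 CPM in all cells. At this resolution fine cluster 7 had 133 cells led by Ifit3, Ifit2 and Ifit1. Rps27l departed downward there, at 70.9 CPM (log2 ratio -0.31, family 0.10).

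The height of Rps27l in fine cluster 8 was seen across hashtags. In TAM1 to TAM5 it stood at 103, 186, 257, 260 and 263 CPM, from 8, 5, 31, 32 and 22 cells. All 5 values lay above the level of 87.95 CPM over all cells. Oil hashtags gave 11 cells in all, and 3 of the 4 with a cell had 334 to 388 CPM and the other 88.3 CPM. Cdkn1a, the cell cycle inhibitor p21, was at 596 CPM in this cluster and at 49.4 CPM over all cells. Since 98 of the 109 cells came from TAM, this state was itself more frequent there, but over all microglia-like cells Rps27l did not pass the test: oil hashtags had 76.6, 90.4, 92.3, 80.003 and 92.9 CPM and TAM hashtags 86.4, 86.5, 87.9, 92.4 and 95.4 CPM (log2 fold 0.05 ± 0.06 SE, edgeR quasi-likelihood test, adjusted p = 0.725).

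Rps19 also stood above the family in these cells. It was at 794 CPM in fine cluster 8 (log2 ratio 0.84), 636 CPM in cluster 6 (0.52) and 683 CPM in cluster 3 (0.63, family 0.31), against 442 CPM over all cells. In the Ifit3-led fine cluster 7 it was at 450 CPM (0.02, family 0.10) and did not depart. In the Fos-led cluster 2 it was at 360 CPM (-0.30, family -0.15), on the other side of the family.

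Rpsa, the small-subunit protein that also serves as the laminin receptor, and Rps2, a neighbour of the mRNA entry site, were high in activated cells. In cluster 3 they stood at 714 and 435 CPM, with log2 ratios of 0.68 and 0.64. Rpsa also departed in the dividing cluster 6, at 595 CPM (0.41, family -0.38). At Leiden 0.8 the 37 cells of that cluster lay in fine cluster 10, of 50 cells. There Rpsa did not depart, at 536 CPM (0.26, family -0.34, 2.47 scaled deviations). In fine cluster 6 (218 cells led by Spp1, Lpl, Ccl4 and Ccl3) Rpsa and Rps2 reached 758 and 473 CPM, with ratios of 0.76 each where the family's median was 0.19. Their hashtag values there did not separate by treatment: Rpsa ran from 659 to 931 CPM in oil and from 635 to 840 CPM in TAM. In cluster 3 all TAM hashtags lay below all oil hashtags for Rpsa, 615 to 743 against 746 to 850 CPM, as 0.351% of all genes did there. Without 11 cells of that cluster, described with its family share, they overlapped, at 610 to 743 and 704 to 821 CPM.

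Rpl7l1 (chr17:46773907-46782672), a paralog of Rpl7 that works in ribosome assembly, moved less than the family, or against it. It had a ratio of -0.04 in cluster 0 (family -0.20), 0.09 in cluster 1 (0.24), 0.05 in cluster 2 (-0.15) and -0.18 in cluster 3 (0.31). Rpl31, a core large-subunit gene at 230 CPM, moved less than its relatives in clusters 0 and 1, with ratios of -0.10 and 0.09. Rps27rt departed in cluster 2 on 54 UMIs (9.02 CPM, interval 6.77 to 11.8), which overlaps its level of 7.69 CPM over all cells.

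**Figure D2:**
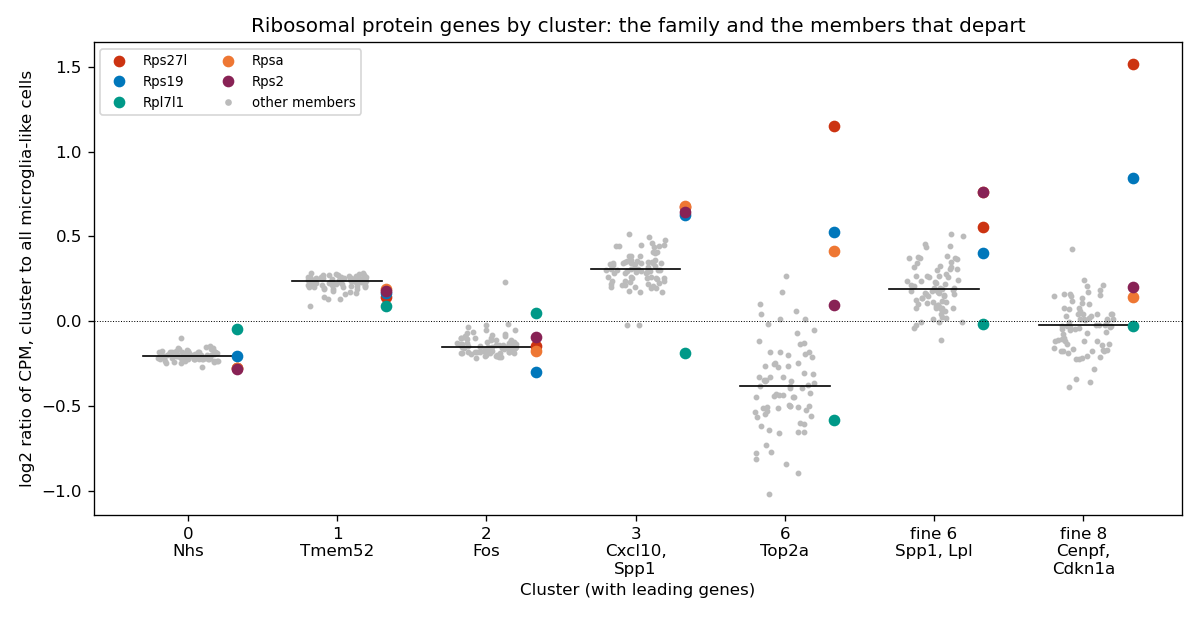
Log2 ratio of CPM in each cluster to CPM in all microglia-like cells (vertical axis) for the ribosomal protein genes, with the 5 named members in colour, the others as grey points and the family median as a black line; fine 6 and fine 8 are clusters at Leiden 0.8. Rps27l stands at 1.15 in cluster 6 and 1.52 in fine cluster 8, and Rpl7l1 lies nearer 0 than the family in clusters 0 to 3.

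Between treatments the family differed little. Of the 83 genes 1 rose with TAM, Rps19, and 0 fell (edgeR quasi-likelihood F test, adjusted p below 0.05 over all 11167 genes tested); 8 had an unadjusted p below 0.05. Over all genes 4.50% were called, 1.64% higher and 2.87% lower, so the members' share of higher calls (1.20%) was near the background. DESeq2 also called Rps19. The median member had a log2 fold (TAM over oil) of 0.02 beside -0.00054 over all genes, with 53 folds above 0 and 30 below. Over all 11167 genes 5565 folds were above 0 and 5602 below. The 77 members with at least 100 CPM other than Rps19 had folds from -0.11 to 0.11, and their 95% intervals all lay between -0.24 and 0.21. Large-subunit names had a median fold of 0.02 and small-subunit names one of 0.02.

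**Figure D3:**
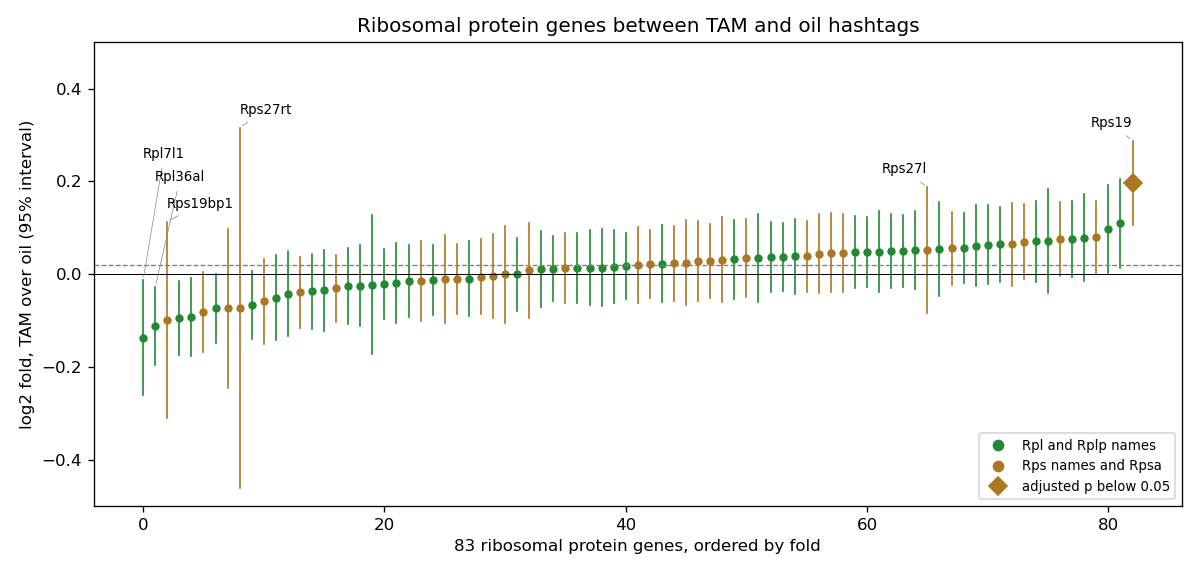
Log2 fold of TAM over oil (vertical axis) for each of the 83 ribosomal protein genes, ordered along the horizontal axis, with 95% intervals; the dashed line is the family median and the diamond marks the gene past the test. Nearly all folds lie between -0.11 and 0.11, with Rps19 at 0.20 at the right end and Rpl7l1 at -0.14 at the left.

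Rps19 (ENSMUSG00000040952, chr7:24884371-24889806, plus strand) had 399, 432, 421, 414 and 399 CPM in Oil1 to Oil5 and 438, 456, 491, 487 and 491 CPM in TAM1 to TAM5. Every TAM hashtag lay above every oil hashtag, which was so for 2.12% of all genes with TAM higher. The means were 413 ± 14.4 and 473 ± 24.3 CPM (SD, n = 5 each), and the log2 fold was 0.20 ± 0.04 (SE; edgeR adjusted p = 0.0157). It was 3.58 scaled deviations from the family's median fold. The transcript end is shared with 4 other annotated genes, none of them in the count table.

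The rise of Rps19 was present inside the 2 largest clusters. In cluster 0 it ran from 312 to 366 CPM in oil and from 379 to 423 CPM in TAM, and in cluster 1 from 446 to 463 and from 487 to 624 CPM, with no overlap in either. Such separation with TAM higher was seen for 18 of the 83 members in cluster 0 and 23 in cluster 1. Over all genes it was seen for 1.17% and 1.25%. The median member also rose, with a log2 fold of 0.11 in either cluster. In cluster 3, where Rps19 was highest, the hashtags overlapped, with 560 to 765 CPM in oil and 602 to 775 CPM in TAM. The call was narrow. It was lost when the immediate early level entered the fit as a covariate (log2 fold 0.14, adjusted p = 0.574), in cluster 0 alone (0.21, adjusted p = 0.153), with a stricter hashtag assignment (0.42, adjusted p = 0.538), without Oil1, Oil2 and Oil3, which held the most immediate early RNA (0.22, adjusted p = 0.1998), and without TAM3, TAM4 or TAM5 (0.18 each, adjusted p = 0.0603, 0.0580 and 0.0510), all by edgeR. In cluster 1 alone it passed (0.26, adjusted p = 0.0337).

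**Figure D4:**
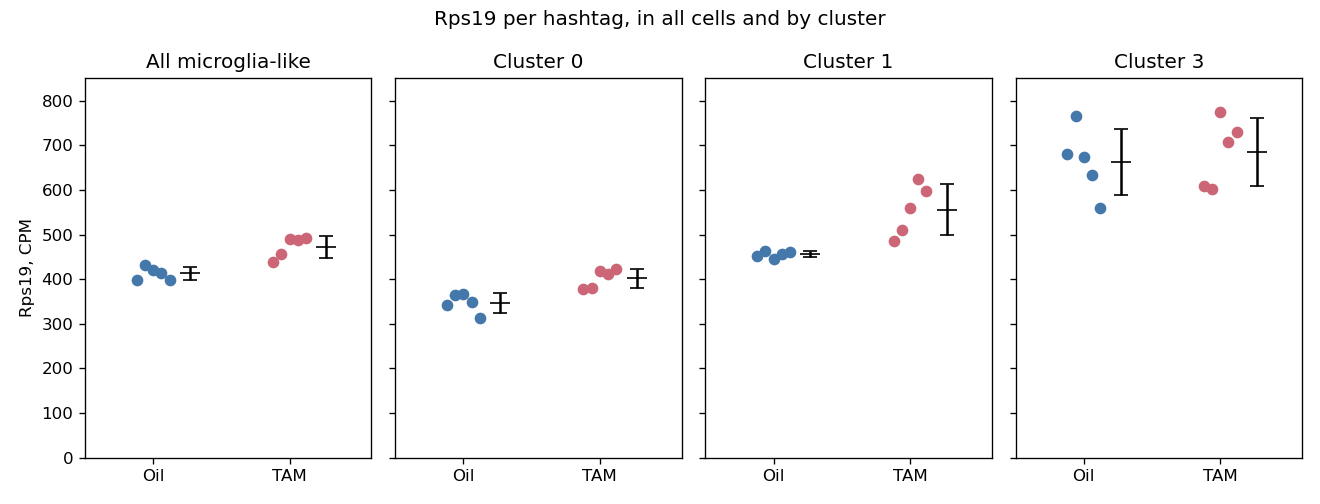
Rps19 level (vertical axis, CPM) in each oil and TAM hashtag, over all microglia-like cells and within clusters 0, 1 and 3; points are hashtags, and black marks the mean ± SD. TAM lies above oil without overlap over all cells, in cluster 0 (379 to 423 against 312 to 366 CPM) and in cluster 1, and the groups overlap in cluster 3.

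On the low side the 3 members whose TAM hashtags all lay below the oil hashtags were Rpl36al, Rps3 and Rpl10a; 3.10% of all genes did so, and 3 of 83 is near that. Rpl36al, the autosomal paralog of the X-linked Rpl36a, had 231, 241, 229, 230 and 234 CPM in oil and 227, 214, 214, 217 and 205 CPM in TAM (log2 fold -0.11 ± 0.04 SE, edgeR adjusted p = 0.121). Its parent Rpl36a had a fold of 0.04 ± 0.04, with overlapping hashtags. Rps3 and Rpl10a had folds of -0.08 and -0.07 (edgeR adjusted p = 0.280 and 0.259). Rpl7l1 was the other member to depart from the family's folds, at -0.14 ± 0.06 (3.21 scaled deviations below, adjusted p = 0.204 by edgeR), with 93.1 to 102 CPM in oil and 81.9 to 98.9 CPM in TAM. None of these passed the test.

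As a whole, the family took 4.70%, 4.92%, 4.78%, 4.65% and 4.79% of UMIs in Oil1 to Oil5 and 4.94%, 4.99%, 4.86%, 4.84% and 5.16% in TAM1 to TAM5. The means were 4.77% ± 0.104 and 4.96% ± 0.126 (SD, n = 5 each), a difference of 0.189 percentage points, and the groups overlapped. Between hashtags of the same number TAM was higher in 5 of 5, by 0.0637 to 0.362 points. The labels do not state that equal numbers pair, and the pairing was taken from these same data. These differences are therefore a description without a test.

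Within the 2 largest clusters the groups came apart. In cluster 0 the share was 3.99% ± 0.130 in oil (3.81% to 4.12%) and 4.33% ± 0.130 in TAM (4.21% to 4.55%), and in cluster 1 it was 5.50% ± 0.0905 (5.37% to 5.58%) and 6.02% ± 0.312 (5.79% to 6.56%; SD, n = 5 each). In cluster 0, 18 of the 83 genes had every TAM hashtag above every oil hashtag, against 1.17% of all genes, and 0 had them below (0.859% of all genes). In cluster 1 the numbers were 23 above, against 1.25%, and 0 below (1.24%). The TAM mean was higher for 77 and 79 of the 83 genes, against 52.0% and 54.7% of all genes. Members share cells and depth, so these counts are 1 shift seen in many genes and not separate findings. Gene by gene the shift was small, with median log2 folds of 0.11 in either cluster; by edgeR 0 members were called in cluster 0, where 0.325% of all genes were, and 1, Rps19, in cluster 1, where 0.895% were.

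This within-cluster difference depended on how the clusters were drawn. At Leiden 0.3 the largest cluster, of 4254 cells led by Atg4a and Nhs, also separated by treatment (3.95% to 4.33% in oil and 4.41% to 4.69% in TAM). The next, of 2902 cells, separated as well (5.19% to 5.75% and 6.04% to 6.77%). It was led by Fos, Ier3 and Dusp1, unlike cluster 1 above, which was led by Tmem52 and Gadd45gip1. The part of a different mix of states in its separation was not tested. At Leiden 0.8 oil and TAM overlapped, narrowly in the largest cluster (3.55% to 3.91% and 3.90% to 4.37%) and also in the next (5.53% to 5.91% and 5.82% to 6.55%). With the members allowed among the genes used for clustering, the largest cluster overlapped (4.51% to 4.88% and 4.65% to 4.95%), and the Fos-led one had a lower mean in TAM (4.27% and 4.08%). A cluster of 1313 cells led by Pla2g12a, Med31 and Gsg1 still separated there, with 5.55% to 6.13% in oil and 6.14% to 7.002% in TAM.

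In cluster 3 the mean share was lower in TAM, but much of the difference went with 11 cells. The family share was 6.29% ± 0.436 in oil (5.67% to 6.85%) and 5.93% ± 0.101 in TAM (5.76% to 6.01%; SD, n = 5 each), with overlap. The TAM mean was higher for 10 of the 82 members with at least 100 UMIs there, against 55.1% of all genes. Of these 82, 0 had all TAM hashtags above all oil hashtags (0.914% of all genes) and 3 had them below (0.351%), Rpsa among them. The 11 cells, 8 of them oil, formed a cluster of their own at Leiden 0.8, called fine cluster 11, with the family at 14.2% of UMIs. Without them, an alternative chosen after seeing the data, the shares were 6.02% ± 0.396 in oil and 5.91% ± 0.117 in TAM (SD, n = 5 each), a difference of -0.115 points in place of -0.367. The TAM mean was then higher for 30 of 82 members, against 54.0% of all genes, and 1 member, Rps13, had all TAM hashtags below all oil hashtags (0.318% of all genes). The difference between clusters was not tested. The mix of states also moved with treatment: cluster 0 held 10.6% to 40.1% of oil cells and 46.6% to 59.7% of TAM cells, and the Fos-led cluster 2 held 4.38% to 57.6% and 0.134% to 3.04%. Within oil, cluster 2 also fell along the hashtag numbers, with 57.6%, 38.1%, 28.8%, 14.3% and 4.38% of cells in Oil1 to Oil5. Cluster 3, with a high family share, held 4.55% to 6.59% of oil cells and 8.81% to 11.3% of TAM cells, and the dividing cluster 6 held 0% to 0.161% and 0.243% to 1.47%.

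**Figure D5:**
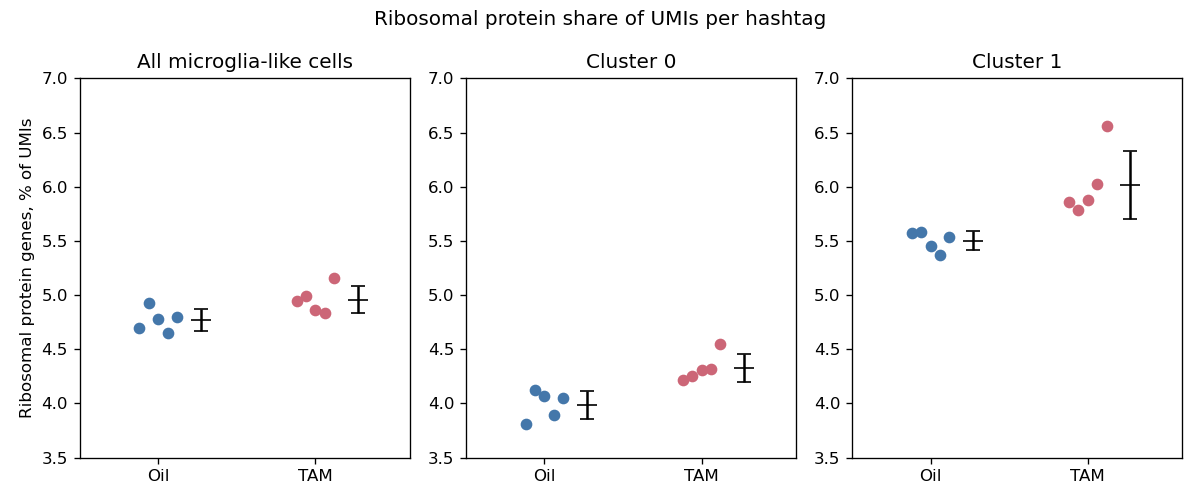
Share of UMIs from the 83 ribosomal protein genes (vertical axis, %, starting at 3.5) in each hashtag, over all microglia-like cells and within clusters 0 and 1; points are hashtags, and black marks the mean ± SD. The groups overlap over all cells (4.77% and 4.96%) and do not overlap in cluster 0 (3.99% and 4.33%) or cluster 1 (5.50% and 6.02%) of this clustering.

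Genes that build and regulate ribosomes were read from the same fit, beside 1.64% of all genes called higher and 2.87% lower. Of 45 ribosome biogenesis genes 0 rose and 3 fell: Nop58, a core protein of box C/D snoRNPs (log2 fold -0.33), the nucleolar GTPase Gnl3 (-0.26) and the nucleolar phosphoprotein Nolc1 (-0.25), with edgeR adjusted p of 0.0373, 0.0443 and 0.0418. The list's median fold was -0.11, and 35 of its 45 folds were below 0, as were 5602 of all 11167. Nolc1 had 43.3 to 48.6 CPM in oil and 34.7 to 40.4 CPM in TAM, without overlap, and the other pair overlapped. Such separation with TAM lower was seen for 1 of the 45 genes, against 3.10% of all genes.

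Of 38 translation factors 0 rose and 4 fell, with a list median of -0.10. Eif4a1, the helicase of the cap-binding complex, had 271, 248, 233, 219 and 210 CPM in oil and 189, 191, 172, 168 and 168 CPM in TAM (log2 fold -0.41 ± 0.07 SE, edgeR adjusted p = 0.0043). Eif1 (-0.22) and Eif5 (-0.19), which act in start codon selection, and the eIF3 subunit Eif3k (-0.20) fell as well. In all 4 of them the TAM hashtags lay below the oil hashtags, as in 6 of the 38 and in 3.10% of all genes. The 4 were called from the same values, so this is no separate finding.

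Of the 12 tested genes among other TOP mRNAs and ribosome-bound proteins, 0 rose and Btf3, a subunit of the nascent polypeptide-associated complex, fell (-0.19). Of 22 regulators, 0 rose and 2 fell: Larp1, which binds TOP mRNAs (-0.16, edgeR adjusted p = 0.0409), and the Eif4a inhibitor Pdcd4 (-0.32, adjusted p = 0.0126). Larp1 had 131.7 to 141 CPM in oil and 119 to 124 CPM in TAM. The 78 mitochondrial ribosomal protein genes, the counterpart of the family in the organelle, had 0 calls in either direction by edgeR. Their median fold was -0.07, with 60 of 78 folds below 0, as were 5602 of all 11167. The cytosolic family's median of 0.02 was on the other side of 0 from those of the biogenesis, translation factor and mitochondrial lists. The medians of the other TOP mRNAs (-0.0098) and the regulators (-0.019) were, like the family's, near 0. None of these differences was tested. The 10 called genes of these lists had folds below 0 in every alternative run, but 0 of them were called by edgeR with the immediate early covariate, with a stricter hashtag assignment or without Oil1, Oil2 and Oil3, 6 by DESeq2, 3 with scaling by library size, 1 in cluster 0 or cluster 1 alone, and 3 to 8 with a hashtag left out.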

How the data were processed

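The authors deposited raw UMI counts for each gene in each barcode. Per the file headers Cell Ranger 7.0.0 made them, and per the submitters' processing notes the genome was mm10; the gene annotation is not given in the sources used here. The matrix held 9975 barcodes with 503 to 23185 UMIs. Hashtags were assigned with HTODemux (Seurat 5.3.0, positive quantile 0.99): 8055 barcodes had 1 hashtag, 1737 several and 183 none, and the last 2 kinds were left out, which also removes doublets between hashtags but not those within one. Barcodes needed 500 genes, 1000 UMIs and at most 10% mitochondrial UMIs, leaving 7903, of which 7515 lay in microglia-like clusters. Clustering used scanpy 1.11.5 (2000 variable genes without sex-linked genes and members, 30 components, 15 neighbours, Leiden 0.5); a cluster of 336 cells with few UMIs and one of 52 cells stayed unnamed.

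Counts were summed per hashtag and tested with edgeR 4.0.16 (quasi-likelihood F test, TMM, filterByExpr, Benjamini-Hochberg). On simulated counts it called 10% of 100 genes changed by a log2 fold of 0.2, and 66% of 100 changed by 0.5. Above 200 CPM it called 33.3% of 9 and 100% of 7. Changes near 0.2 would therefore often be missed. DESeq2 1.42.0 was an alternative. CPM by hashtag over all cells are TMM-scaled, and those by cluster are per total UMIs. Intervals from counts are exact Poisson and cover counting error only. Hashtag numbers were taken to pair oil with TAM because all 5 pairs deviated together (correlations 0.247 to 0.523 over 5585 genes), although the own number correlated best in only 3 of 5; by Xist and Y-linked RNA, numbers 1 and 2 read as male and 3 to 5 as female in both groups. The labels do not state the pairing, and no call of a member changed with the block. Locations come from GENCODE (GRCm38) and start sequences from RefSeq (GRCm38.p6). Members, lists and rules were chosen with earlier results of these data known. Named members were those called, those departing by 3 scaled deviations, the 5 highest and 3 lowest, and paralogs with their parents, plus up to 4 called genes per list. Rps3, Rpl10a, Rplp0 and Rplp2 were named after their values were seen.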

Additional observations from a re-analysis of the deposited data

Results flagged for a closer look

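In groups of 5 hashtags, 4 of the 48 groups examined held a hashtag that stood apart from the other 4 by Dixon's criterion, where chance flags about 1 in 20. Rps2 was at 206 CPM in TAM1 and at 280 to 303 CPM in the other TAM hashtags. TAM1 was also the lowest hashtag for Rps2 within cluster 0 (170 CPM), cluster 1 (238 CPM) and cluster 3 (294 CPM). In oil, Rps2 was at 318.8 CPM in Oil2 and at 277 to 287 CPM in the others. Rps2 shares its transcript end with 24 other annotated genes, and the part of these copies was not tested. Rps27rt was at 11.6 CPM in Oil2 and at 6.75 to 7.65 CPM in the other oil hashtags. Rpl36a was at 237 CPM in TAM5 and at 205 to 213 CPM in the other TAM hashtags.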

How the results depend on the processing

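The number of members that rose (1 as reported) was 0 when the immediate early level was a covariate, in the largest cluster alone, with a stricter hashtag assignment and without Oil1, Oil2 and Oil3, and 0 to 1 when each hashtag was left out in turn. The number that fell was 0 throughout. The median fold of 0.02 was 0.1067 in the largest cluster alone, 0.1665 with the stricter assignment and 0.1132 in the second largest cluster alone, 0.05664 with scaling by library size, 0.03739 without Oil1 to Oil3, and 0.005894 to 0.03128 with each hashtag left out. The share difference of 0.189 points was 0.339 in the largest cluster, 0.393 with the stricter assignment and 0.139 to 0.228 with each hashtag left out. The gap between the highest and lowest microglia-like cluster was 2.24 points and became 10.28 at Leiden 0.8, which split off a cluster of 11 cells. The stricter assignment kept 1229 cells, with 1 cell in Oil5. Taking out Oil1, Oil2 and Oil3, and using the second largest cluster alone, were chosen after seeing the data. With hashtag numbers as a replicate block, 880 genes were called in place of 503, the members' calls stayed at 1 and 0, their median fold was 0.02 and Rps19 kept a fold of 0.20 (edgeR adjusted p = 0.0040). Without a filter on low counts 834 genes were called, with sex as a covariate 874, with the immediate early covariate 66, in the largest cluster 32, in the second largest 81, with the stricter assignment 75, without Oil1 to Oil3 6, and with each hashtag left out 242 to 655.

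The direction turned for these folds, none of them past the test. With the immediate early covariate: Rps27rt 0.2258, Rps27l -0.1001, Rpl31 -0.001402, Rps19bp1 0.2128, Rpl22l1 0.1877 and Rpl36a -0.001785. In the largest cluster: Rps27rt 0.2437, Rps27l -0.01179, Rps2 0.005317, Rpl22l1 0.1061, Rps27 0.04034, Rpl7 0.03316 and Rpl36al 0.005245. In the second largest: Rps27rt 0.09281, Rps2 0.01756, Rpl22l1 0.1623, Rps27 0.03561 and Rpl7 0.08748. With the stricter assignment: Rps2 0.03133, Rpl22l1 0.0498 and Rps27 0.2258. Without Oil1 to Oil3: Rps27rt 0.1392, Rpl22l1 0.02769 and Rpl7 0.002342. By library size alone: Rpl22l1 0.0134 and Rpl7 0.001473. With scaling that leaves out the members: Rpsa -1.874e-05. With each hashtag left out, folds ran from -0.1296 to 0.08073 for Rps27rt, -0.02391 to 0.03758 for Rpsa, -0.1093 to 0.01698 for Rps2, -0.06522 to 0.01209 for Rpl22l1 and -0.001906 to 0.05093 for Rpl36a. The cause of these changes was not tested.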

Other observations

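Small groups of cells spanned a wider range of the family's share. An unnamed cluster of 52 cells led by H2-Eb1, H2-Aa and Itgal, the first pair being MHC class II genes, had the family at 15.3% of UMIs, 13.3% to 17.9% over the 9 hashtags with a cell, at a median of 3684.5 UMIs per cell. All 78 members measured there were above their level in microglia-like cells. Rplp1, the highest member in microglia-like cells, had the smallest log2 ratio, 0.56, where the median member had 1.68. At Leiden 0.8 a microglia-like cluster of 11 cells led by Il12b, Lgals3, Cst7 and Mmp12, all of which lie in cluster 3 of the comparison, had 14.2%, with Malat1 at 0.0296% and mitochondrial genes at 4.08% of UMIs.

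At the other end, an unnamed cluster of 336 cells with a median of 1502 UMIs had the family at 0.660%, with 2.69% mitochondrial UMIs and Malat1 at 2.57%, close to other clusters. Barcodes past the filters without a hashtag had a median of 0.614% over 141 cells and a summed share of 2.68%, and the 215 barcodes outside the filters had 0.836% of their UMIs from the family. Barcodes with several hashtags had 4.79%, near the 4.86% of the microglia-like cells.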
